A study of Daphnia magna with 48 samples.

Results

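The 200 array probes described here differed in level between experiments with the water flea Daphnia magna, while animals exposed to a chemical read close to the unexposed animals of the same experiment. They were chosen from the deposited values in 2 steps. First, 3672 of 6006 Daphnia probes (61.1%) were kept because the mean of 3 exposed arrays lay within 0.4 log2 units of the mean of 3 control arrays for each of 8 chemicals. Of these, the 200 probes with the largest SD over the 8 control group means were taken as members, which left 3472 other probes with small exposure differences. The values that chose the members are therefore the 16 group means, and whatever rests on those means is a description. Where a test across all probes used the same means, its count of members stands beside the share of all probes and nothing is read from it. Each probe is known here only by its identifier. None of the 200 (0 of 200) was found in the RefSeq gene table of the species, so members are described by probe, and no gene function or sequence is given for them.

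Daphnia magna is a freshwater crustacean widely used in ecotoxicology. In culture it reproduces mostly without mating, so the young of a culture are nearly alike in their genes, and newborns collected together form a cohort with the same mothers, food and handling. Whole-body RNA of juvenile daphnids is known to follow age, feeding and the moult cycle, and reference genes for exposure studies are usually sought among transcripts that stay level across cohorts. A 2-colour array compares each sample with a reference RNA on the same slide, so every level below is a log2 ratio of sample and reference and not an amount of RNA.

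Newborn animals were kept for 96 h and sampled at day 4 as whole bodies, with 30 animals pooled for each array. The 8 experiments were named for isobutanol, 3-chloropropanol, aniline, 4-chloroaniline, 3,5-dichloroaniline, 2,3,4-trichloroaniline, 3,4-dichlorophenol and cadmium, and each held 3 control and 3 exposed arrays, which the labels call biological replicates. Exposed animals received the EC10 of the chemical, the concentration with an effect on 10% of the animals in immobilisation tests of the same length. All animals were fed a mixture of 2 green algae, and the medium was renewed every 48 h for the anilines. The reference was a mixture of aliquots of control and exposed samples, and the sample was labelled with Cy5 on 24 arrays and with Cy3 on 24. In every experiment 3 of the 6 arrays carried the sample in Cy5. No strain, clone or concentration is given in the labels, and they do not say which experiments shared a cohort, a day, a slide or a lot of reference, so the animals and the arrays of an experiment cannot be told apart as the origin of a level that all its arrays share.

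Some arrays stood apart, by their spread over all Daphnia probes or by their r over the members. The SD over all Daphnia probes ran from 0.534 to 0.678 on the 6 isobutanol arrays and from 0.229 to 0.509 on the other 42. In the 3-chloropropanol experiment the arrays fell apart by dye: over the 200 members, Pearson r between its arrays averaged 0.653 where both carried the sample in one dye and -0.169 where the dyes were opposite. Its 3 Cy3 arrays had mean r of 0.599 to 0.696 with the 3,4-dichlorophenol arrays, and its 3 Cy5 arrays -0.233 to -0.197. Controls 1 and 3 of that experiment, both in Cy5, had an r of 0.954 with each other. The labels do not settle whether a value is sample over reference or the reverse. The reference was mixed from the samples, so a probe's mean ratio might be looked for near 1, but this did not settle the sign. The log2 of the mean ratio had a median of -0.0042 as deposited and 0.0884 turned for the members, 0.0236 and -0.0029 for the other probes with small exposure differences, and 0.0257 and 0.0151 for all probes. High and low below therefore refer to the deposited value, and both would change places if that value were reference over sample. Values on the 24 Cy3 arrays were deposited with at most 6 significant digits (100% of them), against 0.680% to 1.72% of values on the Cy5 arrays, and whether the files of the dyes were processed differently was not tested.

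The isobutanol controls held an end of the range of control means for most members. The members on which the isobutanol-exposed mean was at an end of the exposed means were not counted. The isobutanol controls had the highest control mean on 66 members and the lowest on 90, and lay within the other 7 control means on 44. Where they lay outside, the median distance to the nearest other control mean was 0.56 log2 units, it was at least 0.5 on 88 members and at least 1 on 20, and as a signed distance it ran from -1.70 to 2.42. Since the tissue was a pool of whole animals, fewer cells of a type and less RNA per cell cannot be told apart in any of these levels.

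Probe DM06113P3, the member with the largest SD over control means (1.13), read 2.15, 3.38 and 3.68 in the isobutanol controls. The same probe read 3.24, 2.05 and 2.90 in the isobutanol-exposed arrays, and between -0.61 and 1.28 on the other 42 arrays. The 6 isobutanol arrays thus did not overlap any other array, and control and exposed arrays overlapped each other. Among the rest, 3,5-dichloroaniline stood highest, with a control mean of 0.65 ± 0.81 and an exposed mean of 0.64 ± 0.28 (SD, n = 3).

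DM08387P3 read 1.66, 2.55 and 2.30 in the isobutanol controls, 2.63, 2.39 and 2.68 in the exposed arrays, and at most 0.82 elsewhere. DM03794P1 had an isobutanol control mean of 2.09 ± 0.47 and an exposed mean of 1.80 ± 0.22 (SD, n = 3), with no other array above 0.90. For DM02243P1 the means were 1.97 ± 0.30 and 1.79 ± 0.11, and one 2,3,4-trichloroaniline control reached 1.16. All of these probes were high on each isobutanol array. The same held for DM07412P2 (control mean 1.76 ± 0.45), DM03467P3 (1.69 ± 0.35), DM07393P3 (1.68 ± 0.49) and DM11292P1 (1.49 ± 0.48), whose isobutanol arrays all lay above every other array.

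The low side was led by DM01791P2. It read -2.25, -2.03 and -1.34 in the isobutanol controls and -1.58, -1.59 and -1.32 in the exposed arrays, against -0.73 to 0.53 on the other 42 arrays. DM03379P3 read -1.95, -1.94 and -1.44 in the controls, -1.81, -1.74 and -1.34 in the exposed arrays, and -0.70 to 0.41 elsewhere. On both probes the isobutanol arrays lay below all others, and the other 7 experiments overlapped one another.

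On 32 members all 6 isobutanol arrays lay above the other 42, beside 2.05% of all Daphnia probes, and on 31 members all 6 lay below, beside 1.38%. The rule favours such probes, so nothing is read from the excess. Among all Daphnia probes, 206 had the 6 isobutanol arrays beyond all others, and 118 of these were over the limit of 0.4 for at least 1 chemical, 25 were among the other probes with small exposure differences and 63 were members. No other experiment had a member with its 6 arrays beyond the other 42 (0 members), beside 0.0333% of all probes for 3,5-dichloroaniline arrays below the rest, 0.0167% for cadmium arrays below the rest and 0% for every other experiment and direction. The isobutanol arrays also resembled each other over the 200 members, with r between arrays of 0.905 to 0.980, and pairs of opposite dye (mean r 0.942) did so about as closely as pairs of the same dye (0.951).

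The count of members with separate isobutanol arrays was smaller after the arrays were given a common spread, counted over the same 200 members. After every array was scaled to the same median absolute deviation, 19 members (10 of them above) had all 6 isobutanol arrays beyond the rest, and after quantile normalization 19 (11 above). The share of all probes under these scalings was not counted, so the smaller counts have no background beside them. The isobutanol controls were the highest or lowest of the 8 control groups on 126 and 125 members under these scalings, against 156 as deposited. The array's own control rows differed between experiments as well. Of 27 control rows, 20 had their lowest experiment mean on the isobutanol arrays, with a median of the row means of -0.62 there and of -0.40 to 0.25 in the other experiments. The highest experiment mean was that of 3,5-dichloroaniline on 22 rows. On 0 rows did all 6 isobutanol arrays lie below the rest. Many of these rows also differed by dye, such as DCP_22_4 with a mean of 3.08 on Cy5 arrays and -3.62 on Cy3 arrays, and each experiment held both dyes in equal number. The part of the control rows and of the array spread in the members' levels was not tested.

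Without isobutanol the members still differed between experiments, though less. The SD over control means had a median of 0.324 for the 200 members with all 8 experiments (lowest 0.277, highest 1.13) and 0.225 with isobutanol left out. The matching values were 0.125 and 0.105 for the other probes with small exposure differences and 0.171 and 0.142 for all probes. The spread between replicate arrays of a group had a median of 0.232 for members, 0.156 for the other probes and 0.186 for all. The control SD exceeded it in 180 members (90%), in 835 of the other probes (24.0%) and in 2332 of all probes (38.8%), an order that follows from the rule. The loss of spread was unequal among the groups of probes described below. In groups A and B the median SD over control means went from 0.341 to 0.164 and from 0.363 to 0.172 without isobutanol, in C and H from 0.311 to 0.230 and from 0.341 to 0.235, and in D and E from 0.305 to 0.274 and from 0.311 to 0.270. In groups F and G it went from 0.318 to 0.334 and from 0.320 to 0.329, and 11 of 12 members of each had a larger SD without isobutanol than with it. The exposed group means, which the rule tied to the controls, had a median SD of 0.290 over members.

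Over the 7 other experiments the range of control means was at least 0.5 on 128 members and at least 1 on 12, with a median of 0.594. The extremes were then shared out. Of the 7, 4-chloroaniline was the highest on 35 members and the lowest on 47, aniline on 36 and 43, 3,5-dichloroaniline on 38 and 15, 3-chloropropanol on 35 and 15, 3,4-dichlorophenol on 24 and 34, cadmium on 21 and 30, and 2,3,4-trichloroaniline on 11 and 16. On 1 member, DM02966P3, all 6 arrays of an experiment lay beyond the other 36. The share of all probes that did so was not counted, so nothing is read from this count. DM02966P3 was singled out after its values were seen. It read 0.51, 0.48 and 0.52 in the cadmium controls and 0.55, 0.76 and 0.65 in the exposed arrays, while the isobutanol arrays overlapped these at 0.40 to 0.66. A list chosen anew without isobutanol shared 81 of its 200 probes with the members.

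For cadmium the high probe was DM08604P1, which read 0.42, 0.36 and 0.42 in the cadmium controls and 0.17, 0.66 and 0.73 in the exposed arrays. The aniline arrays came next (control mean 0.18 ± 0.39, n = 3), overlapping cadmium, and the isobutanol, 4-chloroaniline and 3,4-dichlorophenol controls lay at -0.47 to -0.51. At the low end, DM01461P3 read -0.20, -0.40 and -0.35 in the cadmium controls and -0.47, -0.45 and -0.54 in the exposed arrays. Single arrays of 3-chloropropanol (-0.48), 2,3,4-trichloroaniline (-0.26) and aniline (-0.24) reached into the cadmium range.

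For 4-chloroaniline the low probe was DM02861P3, at -0.75, -0.73 and -0.56 in the controls and -0.90, -0.67 and -0.51 in the exposed arrays. Every other array of this probe lay at or above -0.55, so the groups met only at the edge. The high probe was DM08811P1, at 0.29, 0.36 and 0.60 in the controls and 0.46, 0.32 and 0.28 in the exposed arrays, with other arrays up to 0.52.

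In the 3,4-dichlorophenol experiment DM07473P1 read 0.35, 0.16 and 0.65 in the controls and 1.09, 0.66 and 0.59 in the exposed arrays, against at most 0.61 elsewhere. DM08762P1 was low there, at -0.91, -0.72 and -0.70 in the controls and -0.44, -0.49 and -0.43 in the exposed arrays. On both probes the exposed mean lay above the control mean within the limit the rule set, and arrays of other experiments overlapped it.

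DM12422P1 was high in aniline, at -0.01, 0.61 and 0.92 in the controls and 0.10, 0.27 and 0.61 in the exposed arrays. DM03369P1 was low there, at 0.21, -0.24 and -0.75 in the controls and -0.44, -0.08 and 0.04 in the exposed arrays. The value of 0.92 and that of -0.75 both came from aniline control 3, whose SD over all probes (0.422) was above that of the other 5 aniline arrays (0.229 to 0.277).

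The probe furthest above the rest in 3,5-dichloroaniline was DM03496P1, at 0.74, 0.95 and 0.11 in the controls and 1.11, 0.20 and -0.11 in the exposed arrays, while 4-chloroaniline control 3 reached 1.03, so replicates differed by as much as experiments did. DM08709P2 was low there, at -0.91, -0.55 and -0.79 in the controls and -0.84, -0.90 and -0.58 in the exposed arrays. It was also below 0 on every isobutanol, 2,3,4-trichloroaniline and 3,4-dichlorophenol array, and reached 1.57 on aniline control 3.

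The 2,3,4-trichloroaniline controls were seldom extreme, highest on 3 members and lowest on 1 of all 8. DM11314P3 had there a control mean of 0.41 ± 0.22 and an exposed mean of 0.32 ± 0.16 (SD, n = 3). DM02128P2 had there a control mean of -0.45 ± 0.08 and an exposed mean of -0.25 ± 0.10, with cadmium-exposed arrays at -0.38, -0.36 and -0.40. Neither probe separated the experiment from all others. In 3-chloropropanol, DM11936P1 read 0.61, 0.05 and 0.70 in the controls and 0.12, 0.45 and 0.21 in the exposed arrays, and DM02243P1, named above for isobutanol, had its lowest means there (-0.35 ± 0.36 and -0.33 ± 0.36).

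The members fell into 8 groups of probes that varied together over the 24 control arrays, named A to H by size, with 193 of 200 members in a group of at least 10. The groups came from average linkage on 1 minus Pearson r, with the tree taken at a mean r of 0.5, so the r within a group over control arrays was high by construction. The number of groups was not fixed by the data alone: it was 5 after adjustment for dye, 5 with the tree taken at a mean r of 0.3 and 5 without 3,5-dichloroaniline control 1. Over the 24 exposed arrays, which did not enter the grouping, the mean r within a group was 0.466 for A, 0.691 for B, 0.550 for C, 0.573 for D, 0.481 for E, 0.613 for F, 0.629 for G and 0.625 for H, with a mean r to members of other groups of -0.268 to 0.0279. The latter averages positive and negative r, so a value near 0 does not make a group distinct from each other group. With isobutanol left out the mean r within a group fell to 0.141 for A and 0.264 for B, and lay between 0.377 and 0.666 for the other 6 groups. The rule holds exposed and control means together, so the pattern between experiments had to recur in the exposed arrays. Over all 19900 pairs of members, the r of a pair in control arrays and in exposed arrays correlated at 0.903, and at 0.673 with isobutanol left out, as a description over pairs that share probes and arrays.

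Group A (60 members) was low in isobutanol and near the reference elsewhere. Its mean over members was -0.93 ± 0.07 in isobutanol controls and -0.74 ± 0.04 in isobutanol-exposed arrays (SD, n = 3), and between -0.21 and 0.10 as the mean of any other group of arrays. On 29 of its members all 6 isobutanol arrays lay below the rest. The probes most like the rest of the group were DM10381P1, DM09181P1 and DM05825P2. DM10381P1 had isobutanol means of -1.52 ± 0.20 and -1.35 ± 0.11 (SD, n = 3) and no other array below -0.57, and DM05825P2 had -0.96 ± 0.12 and -0.71 ± 0.13 with no other array below -0.29. DM05825P2 also had the smallest replicate spread relative to its SD, together with DM08387P3 and DM10538P3.

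Group B (46 members) was the mirror image. It stood at 1.16 ± 0.27 in isobutanol controls and 1.06 ± 0.12 in exposed arrays (SD, n = 3), and between -0.09 and 0.25 elsewhere, with 30 members whose 6 isobutanol arrays lay above the rest. The mean level of A and that of B correlated at r = -0.918 over the 24 control arrays, and at -0.620 over the 21 without isobutanol. DM08387P3, DM11751P1 and DM07412P2 were the most typical members. DM11751P1 read 0.88, 1.75 and 1.65 in isobutanol controls and 1.62, 0.84 and 1.19 in exposed arrays, and at most 0.55 elsewhere. DM10538P3, with 1.28 ± 0.27 and 1.09 ± 0.16, did not exceed 0.47 elsewhere.

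Groups C, D and H also had their extreme in isobutanol, beside a second experiment. Group C (21 members) was high in isobutanol (control mean 0.59 ± 0.12) and in cadmium (0.21 ± 0.06 in controls, 0.27 ± 0.06 in exposed arrays), and low in the 4-chloroaniline controls (-0.32 ± 0.05), the 3,5-dichloroaniline controls (-0.28 ± 0.08) and the 3,4-dichlorophenol controls (-0.20 ± 0.14). Its typical probe DM10597P4 read 0.78, 1.08 and 0.87 in isobutanol controls and 0.61, 0.65 and 0.54 in cadmium controls. The other typical probes, DM08895P3 and DM10474P2, had isobutanol control means of 0.88 ± 0.23 and 0.77 ± 0.09 and cadmium control means of 0.09 ± 0.08 and 0.04 ± 0.08 (SD, n = 3), so cadmium did not stand out on them.

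Group D (16 members) was low in isobutanol (-0.68 ± 0.13 and -0.69 ± 0.16) and highest in aniline (0.16 ± 0.11 and 0.19 ± 0.20, SD, n = 3). Its 4-chloroaniline controls disagreed among themselves, with group means of -0.80, -0.23 and 0.22 on the 3 arrays. Its typical probes DM02855P3, DM04802P4 and DM07126P3 had isobutanol control means of -0.82 ± 0.10, -0.77 ± 0.18 and -0.73 ± 0.07. Group H (11 members) was low in isobutanol (-0.70 ± 0.18 and -0.60 ± 0.07) and highest in 3,4-dichlorophenol (0.33 ± 0.15 and 0.41 ± 0.17). Its typical probes were DM04590P2, DM12437P2 and DM07473P1, and DM12437P2 read 0.52, 0.44 and 0.49 in 3,4-dichlorophenol controls against -0.73, -1.55 and -1.10 in isobutanol controls. Aniline exposed 3 read -0.82 on the group H mean, apart from the other 2 exposed arrays of that experiment at 0.09 and -0.05.

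Groups E and F had their highest control means, and group G its lowest, in 4-chloroaniline, 3,5-dichloroaniline and 3,4-dichlorophenol. Group E (15 members) had control means of 0.39 ± 0.06 in 4-chloroaniline, 0.29 ± 0.18 in 3,5-dichloroaniline and 0.26 ± 0.10 in 3,4-dichlorophenol, and was low in isobutanol (-0.41 ± 0.17) and aniline (-0.25 ± 0.20). Group F (12 members) had control means of 0.56 ± 0.18, 0.29 ± 0.14 and 0.46 ± 0.05 in the same 3 experiments and was lowest in aniline (-0.28 ± 0.13). Its isobutanol control mean (0.28 ± 0.10) was close to that of 3,5-dichloroaniline. In the exposed arrays of 3,5-dichloroaniline both groups lay lower than in its controls, at 0.04 ± 0.16 for E and 0.06 ± 0.13 for F (SD, n = 3), within the limit that the rule set on each probe. Exposed means of F were higher in 2,3,4-trichloroaniline (0.23 ± 0.07), 3-chloropropanol (0.18 ± 0.36) and isobutanol (0.11 ± 0.07), and that of E was higher in 2,3,4-trichloroaniline (0.14 ± 0.06). Group G (12 members) ran the other way, at -0.71 ± 0.11, -0.64 ± 0.12 and -0.51 ± 0.11. The mean levels of F and G correlated at r = -0.825 over the 24 control arrays and at -0.828 without isobutanol, and those of E and G at -0.730 and -0.918. Those of E and F correlated at 0.673 and 0.921, those of C and G at 0.487 and 0.828, and those of C and E at -0.869 and -0.836. These groups were thus not separate patterns. All 24 members of groups F and G were among the 200 of the list chosen without isobutanol. So were 11 of 16 in D, 10 of 15 in E, 5 of 21 in C, 4 of 11 in H, 14 of 60 in A and 7 of 46 in B. That list ranks probes by their SD without isobutanol. The median of this SD was largest in F and G (0.334 and 0.329), so the rule of the list favours them.

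The typical probes of these groups show the sizes. In group F, DM02432P3 read 0.87, 0.57 and 0.45 in 4-chloroaniline controls and 0.39, 0.59 and 0.48 in exposed arrays, and its aniline and cadmium arrays all lay at or below 0.04. DM09005P2 and DM00968P2 had 4-chloroaniline control means of 0.37 ± 0.09 and 0.64 ± 0.19 (SD, n = 3). In group G, DM08044P1 read -0.56, -0.51 and -0.60 in 4-chloroaniline controls and -0.52, -0.61 and -0.58 in 3,5-dichloroaniline controls. DM06696P1 and DM04246P2 had 4-chloroaniline control means of -0.81 ± 0.29 and -0.74 ± 0.27. In group E, DM02197P1 had 0.67 ± 0.04 and DM12166P1 0.40 ± 0.24, beside DM08811P1 given above.

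The 3-chloropropanol arrays split by dye most clearly on groups F and G. The group G mean was 0.40 and 0.34 on its Cy5 controls and -0.71 on its Cy3 control, and 0.20 on its Cy5 exposed array and -0.35 and -0.51 on its Cy3 exposed arrays. DM04246P2 read 0.42, -0.74 and 0.39 in those controls and -0.53, -0.46 and 0.27 in those exposed arrays, while all 6 of its 4-chloroaniline arrays, of either dye, lay at or below -0.24. The 3,4-dichlorophenol arrays lay between -0.63 and -0.44 on the group G mean, within the range of the 3-chloropropanol Cy3 arrays. The control mean of group G in this experiment (0.01 ± 0.63, SD, n = 3) was thus near none of its 3 arrays, while that of group H (0.21 ± 0.04) had all 3 arrays between 0.16 and 0.24.

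Deviations of single arrays from their group mean, after a dye term, were not used by the rule, and those of the exposed arrays entered neither the rule nor the grouping. Over the 24 exposed arrays their mean r within a group was 0.619 for G, 0.482 for H, 0.435 for F, 0.424 for D, 0.313 for C, 0.219 for B, 0.113 for E and 0.0927 for A. The mean r of the same deviations with members of other groups was -0.0476 to 0.0118. With the 3-chloropropanol experiment left out, group F came to 0.2565 and the other 7 groups to between 0.107 and 0.619. On the exposed arrays, probes of G, H and D thus varied together between replicate pools too, and those of A and E scarcely did. Both kinds varied together between experiments. Over the 24 control arrays, which made the grouping, the mean r of the deviations was 0.247 for A and 0.316 for E. It was 0.7455 for G, 0.552 for F, 0.529 for H and 0.497 for D there. The deviations correlate probes measured on the same arrays, so animals and array cannot be told apart in them.

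Experiments resembled each other unequally over the 200 members. The control means of 4-chloroaniline and 3,4-dichlorophenol had r = 0.761, those of 4-chloroaniline and 3,5-dichloroaniline 0.728, and those of 3,5-dichloroaniline with 3,4-dichlorophenol and with 2,3,4-trichloroaniline 0.631 and 0.621. Aniline ran against 3,4-dichlorophenol (r = -0.658) and 4-chloroaniline (-0.474). Over the exposed means, 4-chloroaniline and 3,4-dichlorophenol had an r of 0.771 and 3,5-dichloroaniline with 2,3,4-trichloroaniline 0.760. Other pairs moved: 3,5-dichloroaniline had an exposed r of 0.377 with 4-chloroaniline and 0.378 with 3,4-dichlorophenol, and 3-chloropropanol with 3,4-dichlorophenol went from 0.187 in controls to 0.614 in exposed means. These values run over probes of the same arrays, with a shared reference, and carry no p. The SD of the control means over members was 0.895 in isobutanol, 0.362 in 4-chloroaniline, 0.319 in 3,4-dichlorophenol and 0.311 in 3,5-dichloroaniline, and 0.183 to 0.199 in the other 4. Between control and exposed means, r over members was 0.970 in isobutanol and 0.520 and 0.550 in 3-chloropropanol and aniline, and 0.672 to 0.864 in the rest, with the closeness set by the rule.

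The same rule was applied to 2 of the 3 replicate numbers, and the arrays with the remaining number were held out, once for each number. The re-chosen lists of 200 shared 72, 85 and 98 probes with the members. On the held-out control arrays the median r of a re-chosen probe's level over the 8 experiments with its level in the arrays used was 0.623, 0.657 and 0.730, against 0.307, 0.309 and 0.388 for the other probes with small exposure differences. On the held-out exposed arrays it was 0.760, 0.562 and 0.522, against 0.397, 0.109 and 0.0989. Each r rests on 8 experiments and no p is given. Re-chosen probes were picked for a large SD over the control means used (medians 0.3056, 0.3055 and 0.3071, against 0.130, 0.137 and 0.127). The choice thus favours a higher r than in the other probes, and nothing is read from the excess. With isobutanol left out the medians were 0.428, 0.441 and 0.549 for controls, against 0.201, 0.133 and 0.249 for the other probes. For exposed arrays they were then 0.677, 0.397 and 0.297, against 0.327, 0.0630 and -0.0119. Without 3-chloropropanol the mean over the 3 splits for controls was 0.748, against 0.670 with all experiments.

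The exposure differences were taken on the held-out arrays too. On held-out arrays 76.4%, 82.3% and 76.6% of the differences of re-chosen probes were under 0.4, against 90.3%, 92.1% and 90.8% for the other probes. All 8 differences were under the limit on 28, 39 and 27 of the 200 re-chosen probes. A held-out difference rests on 1 control and 1 exposed array, which differ in dye in some experiments, and so is wider than a difference of means of 3.

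Of 48 held-out arrays, 26 had their highest r over re-chosen probes with their own experiment. The 6 isobutanol arrays and the 6 cadmium arrays all did, 4 of 6 did in 3,5-dichloroaniline, 3 each in aniline and 3,4-dichlorophenol, 2 in 4-chloroaniline, and 1 each in 3-chloropropanol and 2,3,4-trichloroaniline. An array could be closest to its own experiment without resembling it: aniline control 3 had an r of -0.0181 with its own, and 3-chloropropanol control 3 one of 0.211. With isobutanol left out, 21 of 42 arrays were closest to their own experiment. The r of a held-out array with its own experiment ran from 0.915 to 0.970 in isobutanol, from 0.608 to 0.746 in cadmium and from 0.615 to 0.823 in 3,4-dichlorophenol. It ran from 0.486 to 0.797 in 4-chloroaniline, from 0.265 to 0.759 in 2,3,4-trichloroaniline and from 0.0627 to 0.766 in 3,5-dichloroaniline. It was lowest in 3-chloropropanol (-0.253 to 0.704) and aniline (-0.303 to 0.477), so no aniline array resembled the mean of the other aniline arrays as closely as the least similar 3,4-dichlorophenol array did its own. Of the 6 arrays of 4-chloroaniline 3 were closest to 3,4-dichlorophenol, and of the 6 arrays of 3,4-dichlorophenol 2 were closest to 4-chloroaniline.

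The dye effect rests on differences between replicates within a group, which the rule did not use, and was tested with limma on all 48 arrays with 16 group means and a dye term, adjusted over all 6006 probes (Benjamini-Hochberg, threshold 0.05). It passed for 35.2% of all Daphnia probes and for 65 members (32.5%), of which 26 read higher and 39 lower with the sample in Cy5. At an unadjusted threshold of 0.05, 94 members (47%) passed, beside 45.1% of all probes. The share among members was thus near the background. The median size of the effect was 0.111 log2 units in members and 0.0992 in all probes, and the largest in a member was 0.492.

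The members with the largest dye effects were DM08951P1, DM07853P1 and DM13466P1. DM08951P1 read 0.49 higher in Cy5 (SE 0.084, limma adjusted p = 2.84e-05), DM07853P1 fell by 0.44 in Cy5 (SE 0.088, limma adjusted p = 0.000219), and DM13466P1 read 0.44 higher (SE 0.060, limma adjusted p = 7.28e-07). In 3-chloropropanol DM13466P1 read 0.55, -0.69 and 0.37 in the controls and -0.49, -0.50 and 0.17 in the exposed arrays, and each positive value was a Cy5 array. Within isobutanol the same probe read -0.39 on the Cy3 control and 0.19 and 0.27 on the Cy5 controls. DM03379P3, given above for isobutanol, read 0.38 higher in Cy5 (SE 0.061, limma adjusted p = 1.13e-05). By group of probes varying together, the dye effect passed on 26 of 60 members of A, 12 of 46 of B, 7 of 15 of E and 7 of 12 of F, and on 13 of the 60 in C, D, G and H.

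The exposure differences were small because the rule chose them so, and the arrays limit how small they can be said to be. The 95% interval of a member's exposed minus control difference had a median half-width of 0.348 log2 units in the limma fit, and the far end of the widest of a member's 8 intervals had a median of 0.676 and a largest value of 1.17. All 8 intervals lay within 0.8 of 0 for 166 members and within 1 for 192. After the dye term, 17 members had a difference of 0.4 or more for at least 1 chemical, since 2 of 3 controls and 1 of 3 exposed arrays carried Cy5 in 4 experiments and the reverse in the other 4. The members are thus probes with small measured differences, and differences of the size of the limit are not excluded by these intervals.

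The limma test of exposed against control, which rests on the contrast the rule used, passed for 6 members with isobutanol beside 12.6% of all probes, for 2 with 3-chloropropanol beside 8.72%, for 1 with 3,4-dichlorophenol beside 2.85% and for 1 with cadmium beside 2.95%. It passed for 0 members with 2,3,4-trichloroaniline beside 3.9%, with 4-chloroaniline beside 0.0333%, and with aniline and 3,5-dichloroaniline beside 0% each. At an unadjusted threshold of 0.05 these 4 chemicals had 19, 8, 9 and 10 members, which is 9.5%, 4%, 4.5% and 5% of members beside 17.7%, 10%, 6.18% and 4.41% of all probes. Nothing is read from these shares, because probes with large differences had been left out. The total of 10 calls, 0.625% of the 1600 tests of a member for a chemical, also moved with the settings. It came to 12.6% of these tests with array weights. With single arrays left out, it came to 42 calls without 3-chloropropanol control 2, 23 without 3-chloropropanol exposed 3 and 17 without aniline control 3. It came to 4 without isobutanol control 2 and 4 without isobutanol control 3. It came to 6 without isobutanol exposed 1, aniline exposed 1 or cadmium control 2, and to 3 without isobutanol exposed 2 or 3. Calls over all probes were not counted under these settings, so nothing about the members is read from these moves. The F test over the 8 control groups, which also rests on the values of the rule, passed for 193 members (96.5%) beside 52.0% of all probes. Over the 7 control groups without isobutanol it passed for 84 (42%) beside 21.0%.

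Both edges of the rule ran through closely spaced probes. The last members by SD were DM04649P1 (0.27707) and DM03200P1 (0.27702), and the first probes outside were DM05426P3 (0.27692) and DM06550P3 (0.27667). By the size of their largest exposure difference, the members nearest the limit were DM02388P1 (0.39972), DM11351P1 (0.39889) and DM11936P1 (0.39852), and the nearest probes outside it were DM07937P1 (0.40023), DM11517P2 (0.40051) and DM00977P1 (0.40065). DM11351P1 showed what such a member looks like: its isobutanol controls read -1.03, -1.48 and -1.36 and its isobutanol-exposed arrays -0.84, -0.90 and -0.94, so exposed and control arrays did not overlap although the probe counts as little changed. Before the limit was applied, 1396 probes had an SD over control means at or above that of the last member. The ending of the probe identifiers, P1 to P4, had nearly the same shares among members (40%, 24.5%, 28.5% and 7%) as among all Daphnia probes (41.4%, 24.9%, 26.1% and 7.56%).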

How the data were processed

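Whole-body RNA of 30 pooled animals was hybridised on each of 48 Agilent 2-colour arrays from 100 ng of RNA, against a reference mixed from the samples, per the labels' protocols. The deposited values are log2 ratios, one table of 6033 rows by 48 arrays with 0 missing values. The base was inferred from the range of the values. For direction, scanner settings, background correction and normalization, the sources used here give nothing. Medians of single arrays ran from -0.0206 to 0.0130, and no array was rescaled. Precision is limited by the number of arrays.

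The 27 control rows were set aside and 6006 Daphnia probes kept. Group means of 3 arrays gave the exposure differences (limit 0.4) and the SD over 8 control means. Tests used limma 3.58.1 in R 4.3.3, with 16 group means and sample dye fitted to all 48 arrays and Benjamini-Hochberg adjustment over 6006 probes at 0.05. They were also run on simulated data with independent noise for each probe. In the real arrays probes varied together, so that run does not show how the tests behave on them. Groups of probes came from average linkage on 1 minus Pearson r over the 24 control arrays at a mean r of 0.5, with at least 10 members (scipy 1.17.1, numpy 2.4.6, pandas 2.3.3, Python 3.11.15). The labels call the samples biological replicates without naming separate cultures, so p-values measure the spread between these samples.

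Probes were named by rule: the 10 with the largest SD over control means, the members furthest above and below the rest in each experiment, the 3 most typical of each group, the 3 largest dye effects, the members at the edges of the rule and the 3 with the largest SD relative to replicates. Members and lists were chosen with earlier results of these data known. Alternatives were array scaling, quantile normalization, other limits, dye adjustment, array weights, a replicate block, and leaving out arrays or experiments. No file pairs probes with genes, so gene lists and markers of tissue or cell type could not be applied, and the labelled organism could not be checked against them.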

Additional observations from a re-analysis of the deposited data

How the results depend on the processing

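Membership followed the settings. Of the 200 members, 99 remained after scaling to a common median absolute deviation, 86 after quantile normalization, 63 and 95 with limits of 0.3 and 0.5, 125 with the SD taken over exposed means and 81 without isobutanol, and 144 to 197 when single arrays were left out. The 63 members with separate isobutanol arrays became 19 under either scaling, and 63 to 72 without single arrays. The 8 groups became 5 after dye adjustment and 5 at a mean r of 0.3, and 5 to 8 without single control arrays, the 5 being without 3,5-dichloroaniline control 1. The held-out r of 0.670 became 0.579 and 0.559 under the scalings, 0.745 after dye adjustment, 0.748 without 3-chloropropanol, 0.548 as Spearman's rho, 0.473 without isobutanol and 0.730 with replicate 3 held out alone. The exposure calls, 0.625% of the tests of a member for a chemical (10 calls), became 0.188% and 0.125% under the scalings, 12.6% with array weights, 0.125% without the dye term, 1.0% with fits of 6 arrays each and 0.0714% without isobutanol, and 0.188% to 2.62% without single arrays. The 193 calls over control groups became 84 without isobutanol and 183 to 195 without single arrays. The isobutanol controls were at an end of the range on 125 to 157 members under these settings, and the dye effect passed on 56 to 76 members, or on 52 to 73 without single arrays. Counting the similar 3-chloropropanol controls as 1 sample, an alternative chosen after seeing the data like the omission of isobutanol, gave 177 shared members, 58 dye calls, 8 exposure calls and 189 calls over control groups. Replicate numbers showed no pairing of the samples on average. The deviations of 24 same-numbered control and exposed pairs had a mean r of 0.0151, against -0.0100 for pairs of unlike number. Single same-numbered pairs ran from -0.304 to 0.303, and 7 pairs were over 0.1. Pairing within single experiments was not tested. With the replicate block the fit gave 65 dye calls, 193 calls over control groups and 12 exposure calls. Under the altered settings, calls and separate isobutanol arrays were counted over members only, apart from the F test without isobutanol. These counts thus have no share of all probes beside them. The causes of these shifts were not tested.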
